A study of Homo sapiens with 3 samples.

Results

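A set of 10 keratin genes was followed by name through RNA sequencing of T47D, a human breast cancer cell line that expresses the estrogen receptor. They were KRT8, KRT18, KRT19, KRT7, KRT23, KRT80, KRT15, KRT5, KRT13 and KRT81, which make up 10 of the 58039 genes listed and 10 of the 55 protein-coding keratins. The control group was 1 library of T47D whose description label names a control hairpin and whose shRNA label reads None. The knockdown group was 2 libraries of T47D carrying a short hairpin RNA (shRNA) against the long noncoding RNA ERINA, shRNA1 in one and shRNA2 in the other. Per the growth protocol, hairpins were carried by lentivirus into the cells and puromycin selected the stable lines, so each library is 1 selected line. The labels do not say that any library repeats another, and the spread between the 2 knockdown libraries holds the difference between hairpins as well as technical spread.

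Keratins are the intermediate filament proteins of epithelial cells. A filament is built from pairs of 1 acidic type I chain and 1 basic or neutral type II chain, so a cell needs both kinds. In the breast, luminal cells are known for the simple-epithelium keratins KRT8, KRT18, KRT19 and KRT7, and basal cells for KRT5 and its partner KRT14. The genes lie in a type II cluster on chromosome 12, which also holds KRT18, and in a type I cluster on chromosome 17. Among the 10 genes, KRT18, KRT19, KRT23, KRT15 and KRT13 are type I and KRT8, KRT7, KRT80, KRT5 and KRT81 are type II.

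Levels are the authors' FPKM, fragment counts normalised to transcript length and library size, which allow genes to be compared per length. The authors deposited a lower and an upper bound with each value, at a confidence level not given in the sources used here. Where 3 values follow each other, they stand in the order control, shRNA1, shRNA2. Summed FPKM was 790300, 860200 and 808500. Depth was estimated at 30400000, 31400000 and 32000000 fragments from genes whose bounds fit a single fragment, if the values were not scaled between libraries. ERINA, listed as LINC00992 (its RefSeq synonym), was at 63.4, 5.21 and 8.91 FPKM, with both knockdown bounds below the control's. The luminal markers of the tissue were listed above 0 in every library, among them GATA3 at 39.0 to 43.4 FPKM and EPCAM at 154 to 160 FPKM. ESR1 was at 16.5 to 18.0 FPKM, with a lower bound of 0 in the control and shRNA2 libraries. Of the immune and endothelial markers, 6 genes together summed to 0.302, 0.0322 and 0.114 FPKM.

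The 10 keratins ran from 0.0216 FPKM (KRT81) to 3152 FPKM (KRT19) in the control. KRT19, KRT8 and KRT18 led, KRT7 and KRT23 followed, then KRT80 and KRT15, and KRT5, KRT13 and KRT81 stayed below 1 FPKM. In each library the deposited bounds of KRT18 were clear of those of KRT7, the next below it, and KRT23 was clear of both KRT80 and KRT15. Within the leading 3, neighbours in the order overlapped in each library. KRT15 was clear of KRT5 in the control, at 15.1 times its level, but the bounds of this pair overlapped in the shRNA2 library. The luminal keratins thus led, whereas basal KRT5 stayed at 0.191 to 0.525 FPKM and its partner KRT14 at 0 to 0.0523 FPKM. KRT15, a keratin of basal cells in stratified epithelium, stood between these and the luminal keratins at 4.86 to 5.87 FPKM.

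**Figure D1:**
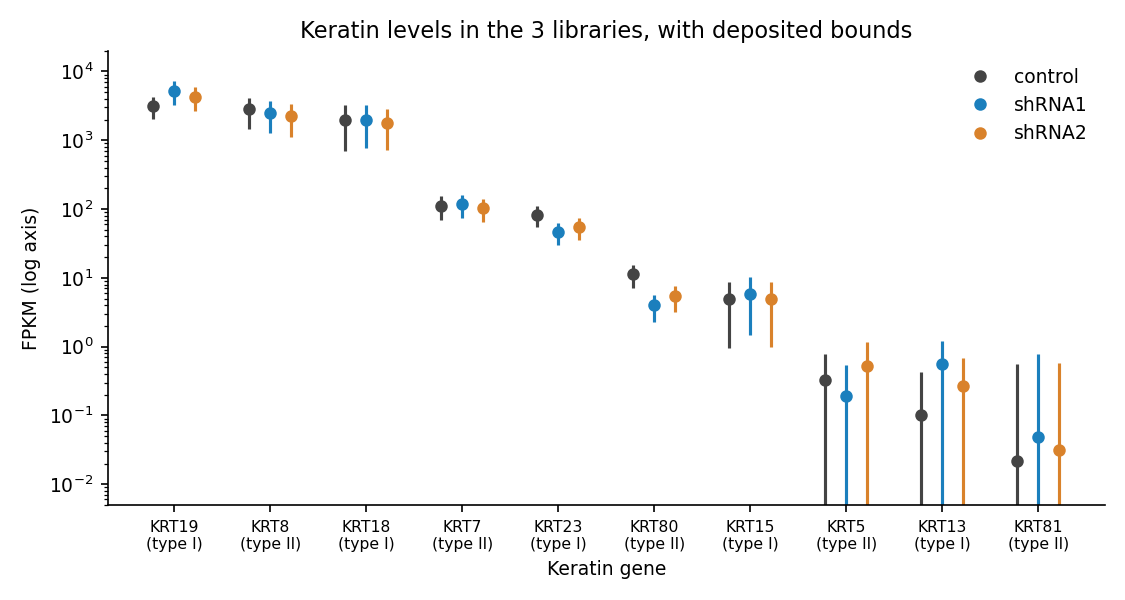
FPKM (log axis) of the 10 keratins in control, shRNA1 and shRNA2, ordered by control level; points are levels and lines the deposited bounds, cut at the axis where the lower bound is 0. KRT19, KRT8 and KRT18 stand at 1770 FPKM or more in each library, and the lines of KRT5, KRT13 and KRT81 reach the axis.

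Knockdown and control were compared to ask which keratins differ when ERINA is reduced. KRT80 and KRT23 were lower with both hairpins, and so was KRT8 by less, 11.65% with shRNA1 and 20.7% with shRNA2. KRT19 was higher with both. KRT15 was 20.6% higher with shRNA1 and 0.48% higher with shRNA2, and KRT7 and KRT18 lay on either side of the control. The test was limma on log2(FPKM + 0.5), Benjamini-Hochberg adjusted over the 13112 genes with a mean of at least 1 FPKM. It passed none of the 7 keratins above that filter, and 0.351% of all tested genes. At an unadjusted limma p under 0.05 there were 3 of the 7, KRT80, KRT23 and KRT19, against 29.7% of all tested genes. With protein-coding genes tested alone, those 3 passed, 1 higher where 7.11% of genes passed higher and 2 lower where 11.3% passed lower. The fit has 1 residual degree of freedom, from the knockdown pair, and the lone control is assumed to vary like that pair.

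Both hairpins were set against the same control library, so their values are given side by side. At least 1.5-fold lower with both were KRT80 and KRT23, 2 of 7, where 7.21% of tested genes were. None of the 7 was at least 1.5-fold higher with both, where 5.66% were. None had deposited bounds of both hairpins clear of the control, where 0.305% did. The median limma log2 change of the 7 was -0.085, beside 0.00054 over all tested genes.

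KRT19 is the smallest keratin, a type I chain without the usual tail domain, found in luminal cells and used as an epithelial marker. It lies at 41523617 to 41528308 on the minus strand of chromosome 17 (GRCh38). The control library held 3152 FPKM (bounds 2021 to 4282), the shRNA1 library 5210 FPKM (3265 to 7156) and the shRNA2 library 4281 FPKM (2658 to 5903). The control was the lowest of the 3 libraries, but its bounds overlapped those of both hairpins. The knockdown mean of 4746 ± 657 FPKM (SD, n = 2) was 1.51 times the control. Limma gave a log2 change of 0.58 (SE 0.17) that did not pass, at a Benjamini-Hochberg adjusted p of 0.135 (0.0387 to 0.362 over the settings tried).

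KRT8 is the main type II chain of simple epithelia and the usual partner of KRT18. KRT8 was at 2800 FPKM in the control (bounds 1454 to 4146), at 2474 FPKM in the shRNA1 library (1263 to 3685) and at 2221 FPKM in the shRNA2 library (1108 to 3333). The control was highest, and all bounds overlapped widely. The knockdown mean was 2347 ± 179 FPKM (SD, n = 2), and the limma log2 change of -0.26 (SE 0.13) did not pass (Benjamini-Hochberg adjusted p of 0.262).

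KRT18, the type I chain that pairs with KRT8, was at 1996 FPKM in the control (bounds 689 to 3303), at 2001 FPKM in the shRNA1 library (779 to 3223) and at 1770 FPKM in the shRNA2 library (712 to 2828). The shRNA1 library lay level with the control and the shRNA2 library 11.3% below it. Limma gave a log2 change of -0.085 (SE 0.13) at a Benjamini-Hochberg adjusted p of 0.679. Its bounds reached 59.8% to 65.5% of the level to either side, against 35.9% to 37.9% for KRT19, so KRT18 was the least precisely given of the abundant keratins.

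KRT8 and KRT18 are neighbours that overlap by 1084 bases on opposite strands, between 52897187 and 52952901 on chromosome 12 (GRCh38), and whether reads were counted by strand is not stated. Of the 50-base words in the KRT8 transcript with the longest coding sequence in GENCODE release 29, 41.3% also occur in transcripts of other genes on either strand, and 47.6% for KRT18, where the KRT8 gene holds 21.6%. At 100 bases the shares were 7.56% and 16.6%, and for KRT19 they were 1.79% and 0%. All of the KRT18 share at 100 bases lay in the KRT8 gene. The largest sharer of 50-base words with KRT8 was KRT8P3, a processed copy of the gene elsewhere in the genome, at 24.1%. KRT8P33, another processed copy at 123400922 to 123402344 on the minus strand of chromosome 5, matched the KRT8 coding sequence at 95.9% of 1422 aligned bases. As an example, the first ungapped stretch of 30 bases with exactly 2 differences and matching ends was picked. It runs from 134 to 163 of the KRT8 coding sequence, with the bases that differ in capitals:
KRT8: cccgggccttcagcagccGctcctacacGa
KRT8P33: cccgggccttcagcagccActcctacacAa
The copies took little of the deposited level: 50 listed KRT8 copies summed to 29.7, 26.3 and 24.0 FPKM, or 1.06% to 1.08% of KRT8. Adding them to KRT8 left its log2 differences at -0.18 with shRNA1 and -0.33 with shRNA2.

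KRT7, the type II keratin of ductal and glandular epithelium, was at 111 FPKM in the control (bounds 68.6 to 153), at 118 FPKM in the shRNA1 library (72.9 to 163) and at 103 FPKM in the shRNA2 library (64.4 to 142). The hairpin libraries lay on either side of the control. The knockdown mean of 110.5 ± 10.2 FPKM (SD, n = 2) stood 0.997 times the control, with a limma log2 change of -0.0067 (SE 0.11) at a Benjamini-Hochberg adjusted p of 0.971. KRT7 overlaps KRT86 on its own strand by 2887 bases, where KRT86 was listed at 0.801, 1.92 and 1.23 FPKM. Of the 50-base words of KRT7, 10.8% also occur in other genes, with KRT7-AS as the largest sharer at 10.4%.

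KRT23, a type I keratin of some glandular epithelia, was at 83.1 FPKM in the control (bounds 54.5 to 112), at 46.04 FPKM in the shRNA1 library (29.6 to 62.5) and at 54.7 FPKM in the shRNA2 library (35.3 to 74.1). Both hairpin libraries lay below the control, by 1.81-fold and 1.52-fold, and their bounds still reached the control's. The knockdown mean was 50.4 ± 6.14 FPKM (SD, n = 2). Limma gave a log2 change of -0.72 (SE 0.13) that did not pass. The limma Benjamini-Hochberg adjusted p was 0.0891 (0.011 to 0.263 over the settings tried). AC004231.2 on the opposite strand, at 0.0899, 0.350 and 0.260 FPKM, covers the 14939 bases of the KRT23 gene.

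KRT80, a type II keratin found in many epithelia, had the largest log2 change of the 7. The control library held 11.2 FPKM (bounds 7.01 to 15.5), the shRNA1 library 4.02 FPKM (2.31 to 5.73) and the shRNA2 library 5.43 FPKM (3.21 to 7.66). The bounds of shRNA1 were clear of the control and those of shRNA2 overlapped it. Relative to the control, KRT80 was 2.80-fold lower with shRNA1 and 2.07-fold lower with shRNA2, with a knockdown mean of 4.73 ± 1.003 FPKM (SD, n = 2). Limma gave a log2 change of -1.18 (SE 0.21) that did not pass, at a Benjamini-Hochberg adjusted p of 0.0877 (0.00979 to 0.263 over the settings tried). KRT80 shares just 0.42% of its 50-base words with other genes, but LINC00592 on the opposite strand, at 0.463 to 0.541 FPKM, covers the 23005 bases of the gene.

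By a rule that took protein-coding genes with a mean of at least 10 FPKM, 6726 of them, the pair of log2 differences of KRT80 was matched most closely by HMGCS1, MTHFD2 and CCNA2. HMGCS1, an enzyme of cholesterol synthesis, was at 39.1, 14.9 and 19.3 FPKM. MTHFD2, a mitochondrial folate enzyme, was at 167, 64.5 and 83.0 FPKM. CCNA2, cyclin A2, was at 43.2, 16.6 and 21.6 FPKM. Their distances to KRT80 were 0.023, 0.024 and 0.028 on the log2 scale, over 3 libraries.

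KRT15, a type I keratin of basal cells in stratified epithelium, begins 1087 bases beyond the end of KRT19. It was at 4.86 FPKM in the control (bounds 0.941 to 8.78), at 5.87 FPKM in the shRNA1 library (1.496 to 10.2) and at 4.89 FPKM in the shRNA2 library (0.991 to 8.78). All bounds overlapped almost fully, and the limma log2 change of 0.13 (SE 0.17) did not pass (Benjamini-Hochberg adjusted p of 0.636). With shRNA1, its neighbour KRT19 stood at 1.65 times and KRT15 at 1.21 times the control. With shRNA2, KRT19 stood at 1.36 times and KRT15 at 1.005 times the control. The bounds of KRT15 reached 74.5% to 80.6% of its level to either side, and the difference between the genes was not tested.

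**Figure D2:**
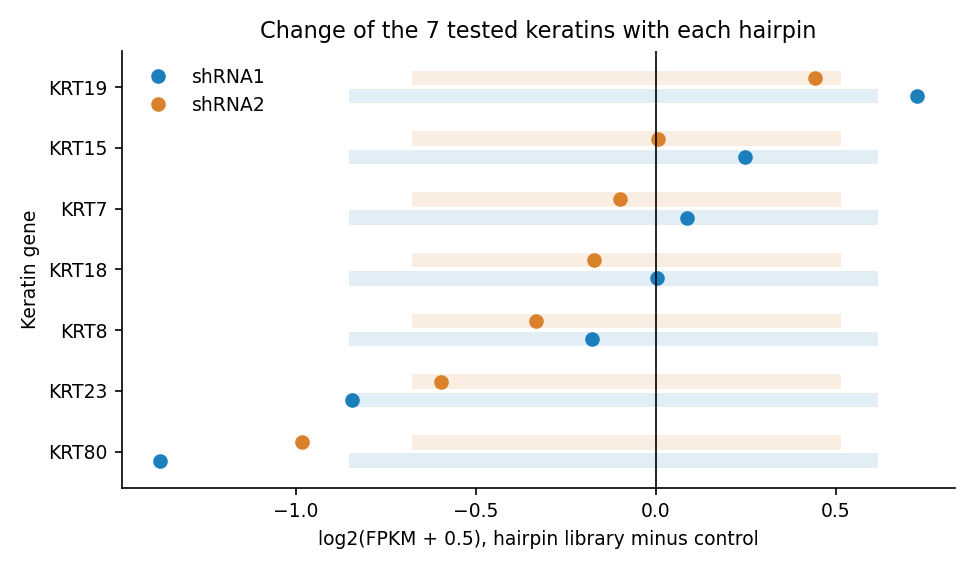
Difference in log2(FPKM + 0.5) between each hairpin library and the control for the 7 tested keratins; bands span the 5th to 95th percentile of tested protein-coding genes, from -0.85 to 0.62 with shRNA1 and -0.68 to 0.51 with shRNA2. KRT80 lies outside the band with both hairpins, and KRT19 with shRNA1 (0.725); over all tested genes, whose 95th percentile with shRNA1 is 0.732, KRT19 lies inside.

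The other 3 genes did not reach a mean of 1 FPKM and were not tested. KRT5, the type II chain of basal cells, was at 0.323, 0.191 and 0.525 FPKM, highest in the shRNA2 library and lowest in the shRNA1 library. KRT13, a type I keratin of mucosal epithelium, was at 0.102, 0.555 and 0.267 FPKM, lowest in the control. KRT81, a type II hair keratin, was at 0.0216, 0.0479 and 0.0314 FPKM. All 9 of these values have a lower bound of 0, and for each gene the bounds of the 3 libraries overlapped. From the estimated depth and the length of the longest coding transcript, the KRT5 values stand for about 25, 15 and 42 fragments. The KRT13 values stand for about 5.3, 30 and 14 fragments and the KRT81 values for about 1.3, 2.9 and 1.9. Such a difference in KRT81 was not detectable at this depth.

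KRT81 also has a near copy that limits what its level can say. KRT81 (52285913 to 52291534, minus strand of chromosome 12, GRCh38) lies inside the span of KRT86, which is on the plus strand. Their coding sequences matched at 95.3% of 1392 aligned bases, and 38.4% of the 50-base words of KRT81 occur in KRT86. Bases 19 to 48 of both coding sequences, counted from the start codon, show the likeness, with the bases that differ in capitals:
KRT81: tTtggtggGcgcgccttcagctgcatctcg
KRT86: tGtggtggCcgcgccttcagctgcatctcg
KRT86, another hair keratin, has deposited lower bounds of 0 in each library, as KRT81 has. Reads from the bases they share could belong to either gene, and how they were divided between the pair is not given in the sources used here.

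The balance between chain types in the control library differed from that in both hairpin libraries, which was not tested. Type I members summed to 5236, 7264 and 6110 FPKM. Type II members summed to 2923, 2596 and 2330 FPKM. The ratio of type I to type II, which no scaling of whole libraries can alter, was 1.79 in the control against 2.80 and 2.62 in the hairpin libraries, a knockdown mean of 2.71 ± 0.124 (SD, n = 2). Over all 55 protein-coding keratins it was 1.81, 2.82 and 2.65. The gap of control to knockdown was larger than the spread between the knockdown libraries, but with 1 library against 2 an exact permutation test, one-sided, cannot go below p = 0.333.

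Both sums bore on the ratio: the type I sum stood at 1.39 and 1.17 times the control with shRNA1 and shRNA2, and the type II sum at 0.888 and 0.797 times. Without KRT19 the ratio of type I to type II was 0.713, 0.791 and 0.785. KRT19 made up 38.6% of the members' FPKM in the control and 52.9% and 50.7% in the hairpin libraries. KRT8 made up 34.3%, 25.1% and 26.3%, and KRT18 24.5%, 20.3% and 21.0%. The ratio of KRT19 to KRT8 was 1.13, 2.11 and 1.93, lowest in the control. The ratio of KRT8 to KRT18, the pair that fills most simple-epithelium filaments, was closer between libraries at 1.40, 1.24 and 1.25. The deposited bounds of KRT8, KRT18 and KRT19 are wide beside these differences.

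**Figure D3:**
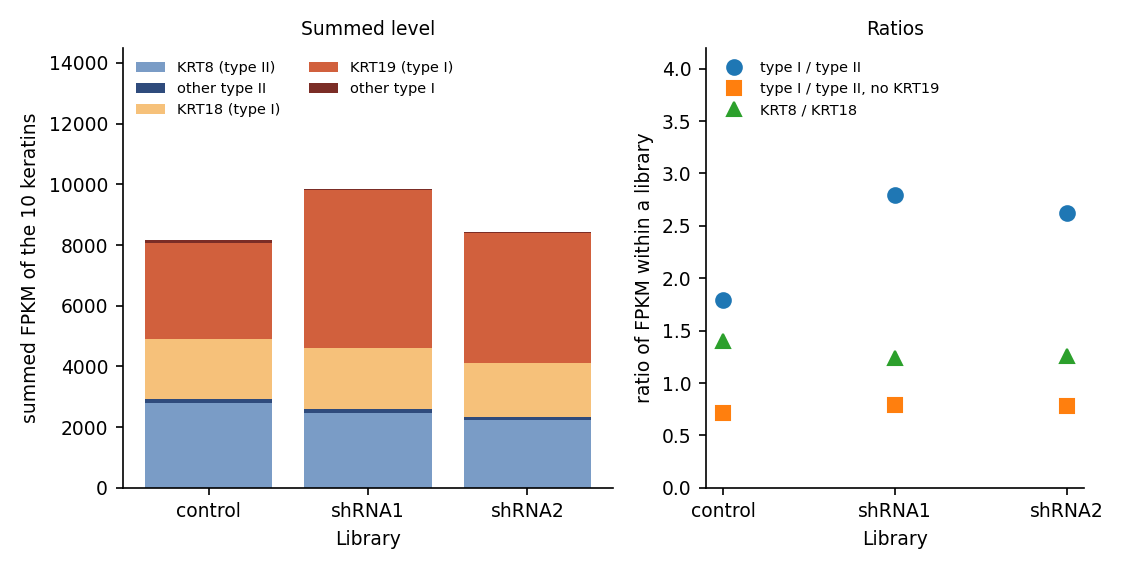
Left, FPKM of the 10 keratins stacked by gene and chain type in each library; right, ratios of FPKM within each library. The ratio of type I to type II is 1.79 in the control and 2.80 and 2.62 with shRNA1 and shRNA2, and 0.713, 0.791 and 0.785 once KRT19 is left out.

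All 10 members together took 1.03%, 1.15% and 1.04% of all FPKM. The knockdown mean of 1.10% ± 0.0722 (SD, n = 2) differed from the control by less than the spread between the hairpin libraries. Between shRNA1 and shRNA2, the 7 tested members stood 0.739 to 1.22 times apart, and 0 of 7 were at least 1.5-fold apart, where 4.37% of tested genes were. The difference from the control was larger with shRNA1 for KRT19, KRT15, KRT23 and KRT80 and larger with shRNA2 for KRT8, KRT18 and KRT7, with no test.

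Scaling bears on the small differences. Giving all libraries 1 total shifts the median log2 difference of tested genes to -0.115 for shRNA1 and -0.029 for shRNA2. The log2 difference of KRT7 with shRNA1 then goes from 0.087 to -0.035, that of KRT18 from 0.0035 to -0.12 and that of KRT15 with shRNA2 from 0.0062 to -0.024. With the same protein-coding total, KRT18 with shRNA1 (-0.073) and KRT15 with shRNA2 (-0.027) also changed side. KRT19 remained above, and KRT8, KRT23 and KRT80 below, the control with each hairpin under both scalings.

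**Figure D4:**
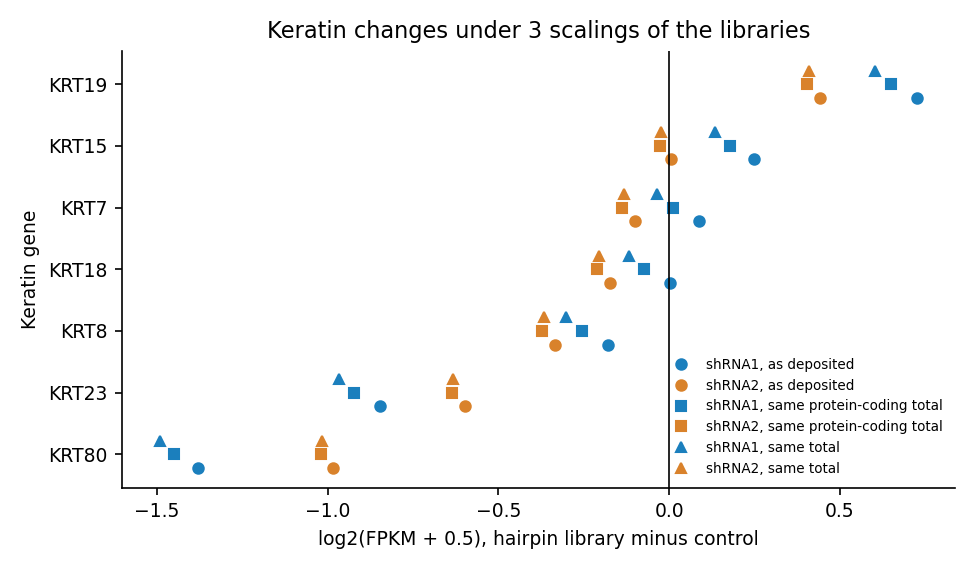
Difference in log2(FPKM + 0.5) between each hairpin library and the control for the 7 tested keratins, as deposited and after scaling to 1 protein-coding total or 1 total. KRT80, KRT23, KRT8 and KRT19 keep their side of 0 under the 3 scalings, while KRT7, KRT18 and KRT15 have points on either side.

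The other 45 protein-coding keratins were mostly silent: 42 stayed under 1 FPKM in each library, and 17 of those were listed at 0 in all 3. The other 3 were KRT10, KRT4 and KRT86. KRT10, a type I keratin best known from differentiating epidermis, was the highest of them at 61.3, 59.8 and 64.3 FPKM (limma Benjamini-Hochberg adjusted p of 0.917). KRT4, the mucosal partner of KRT13, was at 0.241 FPKM in the control (bounds 0 to 0.55), at 1.37 FPKM in the shRNA1 library (0.537 to 2.21) and at 0.811 FPKM in the shRNA2 library (0.262 to 1.36), below the filter of the test. KRT86 was tested and did not pass, with a limma log2 change of 0.65 (SE 0.29) and a Benjamini-Hochberg adjusted p of 0.224.

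Desmosomes anchor keratin filaments at cell contacts through plakins and armadillo proteins. Of 13 tested genes of this list, 0 passed limma over all genes, where 0.351% did. At an unadjusted p under 0.05 there were 6, where 29.7% of all tested genes were. With protein-coding genes alone 1 passed higher, where 7.11% did, and 1 lower, where 11.3% did, with a list median of -0.062. PKP4, a plakophilin-related protein, was at 20.1, 29.9 and 29.1 FPKM. PPL, the cytolinker periplakin, was at 12.1, 8.40 and 8.21 FPKM. EPPK1, which binds keratin bundles, was at 10.3, 7.46 and 7.81 FPKM, and the desmosomal cadherin DSC2 at 8.87, 6.66 and 6.996 FPKM. DSP, desmoplakin, the main link to keratin, was at 63.1, 63.8 and 66.2 FPKM (limma Benjamini-Hochberg adjusted p of 0.754); it was chosen after its values were seen.

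Among 9 tested genes of keratin binding and filament assembly, 0 passed limma over all genes, 5 were at an unadjusted p under 0.05 (29.7% of all tested genes) and 2 passed lower with protein-coding genes alone (11.3% of those), with a list median of -0.155. SFN, the 14-3-3 sigma protein, which binds keratins and is a p53 target, was at 32.6, 22.3 and 20.9 FPKM. PNN, pinin, was at 20.4, 13.8 and 14.96 FPKM and TCHP, trichoplein, at 4.99, 3.47 and 3.33 FPKM. FAM83H, which recruits casein kinase to keratin filaments, was at 21.1, 26.4 and 26.2 FPKM.

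Of 7 tested genes of other intermediate filaments, 0 passed limma over all genes and 3 were at an unadjusted p under 0.05, where 29.7% of all tested genes were. With protein-coding genes alone 1 passed higher and 2 lower, beside 7.11% and 11.3% (list median -0.095). LMNB1, lamin B1 of the nuclear lamina, was at 56.1 FPKM in the control and 28.5 and 33.9 FPKM with shRNA1 and shRNA2. PRPH, peripherin, was at 7.32, 4.44 and 4.38 FPKM. BFSP1, a filament protein of the lens, was at 1.49, 3.62 and 2.87 FPKM, and vimentin (VIM), the filament of mesenchymal cells, at 1.47, 2.06 and 2.70 FPKM. Vimentin stood at 0.0734%, 0.103% and 0.153% of KRT18.

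Among 12 tested epithelial transcription factors, 0 passed limma over all genes, 6 were at an unadjusted p under 0.05 (29.7% of all tested genes) and 2 passed higher with protein-coding genes alone (7.11% of those), with a list median of 0.029. TFAP2A, an AP-2 factor, was at 9.34, 13.5 and 12.9 FPKM, and EHF, an ETS factor of epithelia, at 172, 227 and 212 FPKM. TFAP2C was at 31.8, 25.4 and 26.3 FPKM and KLF4 at 5.24, 3.60 and 3.62 FPKM. TP63, the regulator of basal keratins such as KRT5, was at 1.53, 1.36 and 1.63 FPKM, chosen after its values were seen.

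Basal and myoepithelial genes other than keratins had 6 tested members, with 0 passing limma over all genes. At an unadjusted p under 0.05 there were 2 of the 6, a share near the 29.7% of all tested genes, and 2 passed lower with protein-coding genes alone, where 11.3% did (list median -0.139). CDH3, P-cadherin, was at 48.1, 24.5 and 27.4 FPKM. The integrin ITGA6 was at 10.8, 4.55 and 5.58 FPKM and its partner ITGB4 at 36.7, 31.02 and 32.6 FPKM. EGFR was at 1.48, 1.37 and 1.39 FPKM. The list of 10 summed to 110, 72.6 and 80.6 FPKM, with CNN1, a smooth-muscle calponin, at 0.0197, 0 and 0 FPKM and MME at 0.0131, 0.0128 and 0.194 FPKM, all with lower bounds of 0. Smooth-muscle actin (ACTA2) of the same list was at 9.99, 9.21 and 10.8 FPKM. The part of these genes in the lower KRT80 and KRT23 levels was not tested. The stromal markers, 6 genes, summed to 21.5, 15.1 and 17.7 FPKM, with 0 of 4 tested passing limma over all genes, 2 at an unadjusted p under 0.05 (29.7% of all tested genes) and 1 lower with protein-coding genes alone (11.3% of those), COL1A1 (5.16, 1.65 and 2.10 FPKM). Of the 4 tested, 2 were higher with both hairpins, vimentin (above) and lumican (LUM) at 0.842, 1.05 and 1.57 FPKM. The other 2 were lower with both, COL1A1 and fibronectin (FN1). FN1 had the highest level of the 6 genes, at 13.95, 9.015 and 10.59 FPKM. Decorin (DCN), not tested, was at 0.0227, 1.25 and 0.663 FPKM, with lower bounds of 0.

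**Figure D5:**
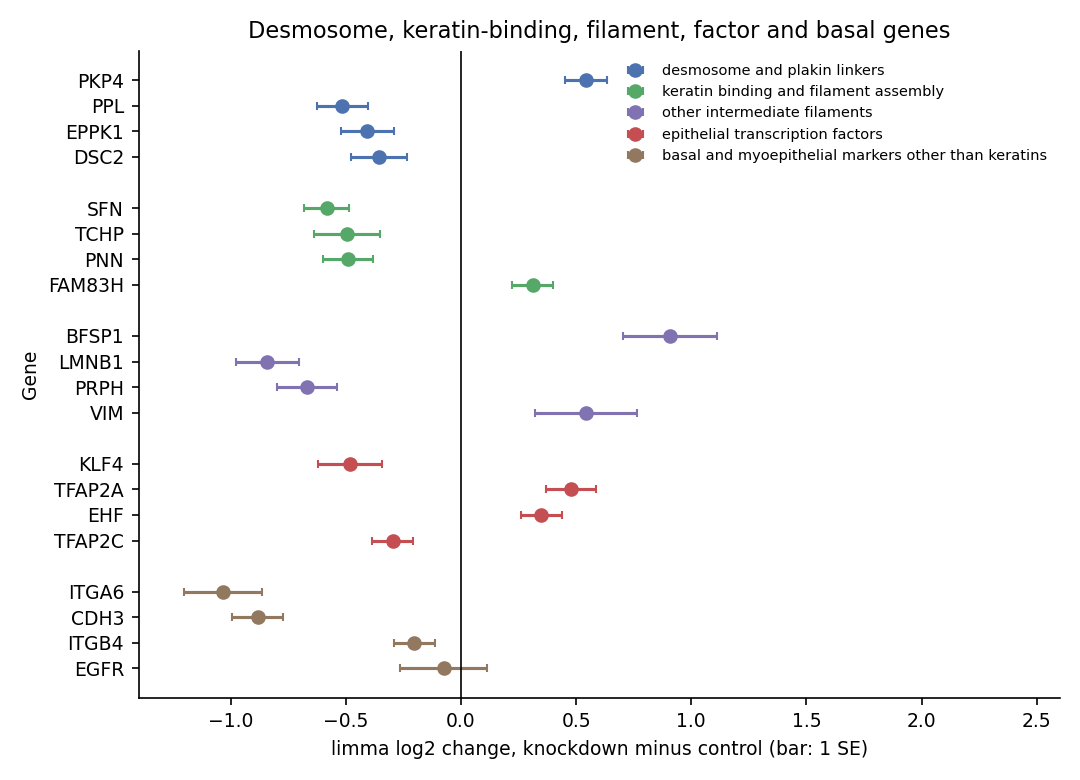
Limma log2 change (knockdown minus control, bar 1 SE) for the up to 4 named genes with the largest change in each list drawn. The lists are desmosome, keratin-binding, other filament, epithelial factor and basal genes. The luminal, stromal and other keratin lists are not drawn. SFN, LMNB1, ITGA6 and CDH3 lie to the left and PKP4, BFSP1 and TFAP2A to the right; none passed the adjusted threshold over all genes.

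Among the luminal markers, FOXA1, a pioneer factor of luminal cells, stood at 65.7, 94.8 and 91.5 FPKM, lowest in the control, with a limma Benjamini-Hochberg adjusted p of 0.0842 that did not pass over all genes. The epithelial cadherin CDH1 was at 234, 151 and 189 FPKM and the ETS factor SPDEF at 78.4, 116 and 93.9 FPKM.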

How the data were processed

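RNA from 1 control and 2 knockdown T47D libraries was analysed. The authors deposited 1 table of FPKM with lower and upper bounds. STAR, RSEM and GRCh38 are named per the submitters' processing notes, with no role or version; no source used here gives the annotation, strand, filters or any scaling. Columns were matched to samples by their description labels. The 10 keratins were found by gene name. Genes with a mean of at least 1 FPKM (13112, of which 11546 protein-coding) were tested on log2(FPKM + 0.5), which understates the change of low genes, with limma 3.58.1 (R 4.3.3; lmFit, eBayes with trend), Benjamini-Hochberg adjusted over all of them, at 0.05. Fold and ratio values have no pseudocount. The fit was tested on simulated data, with the control drawn to vary like the knockdown pair and with changes larger than any keratin's here. It could therefore not check the assumption on the lone control, nor recovery of changes of keratin size. Gene types, coordinates and transcripts came from GENCODE release 29 (GRCh38), matched by identifier for 99.0% of genes, which may differ from the authors' annotation. Words of 50 and 100 bases were compared over its transcripts, and coding sequences aligned with Biopython 1.88. Python 3.11.15 was used. The members and lists were chosen with earlier results of these data known. All members are named, and of each list up to 4 genes with the largest change among those on 1 side of the control with both hairpins, and other keratins of at least 1 FPKM in a library. Alternatives covered pseudocount, filter, scaling, genes tested, variance model and each hairpin alone. Counts over the luminal markers and 1 gene of that list are not reported here.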

Additional observations from a re-analysis of the deposited data

How the results depend on the processing

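With protein-coding genes tested alone 3 members passed (KRT19, KRT23 and KRT80) and with robust eBayes 2 (KRT23 and KRT80), in place of 0; the other 7 settings with a test gave 0. Of 80 alternative values for single members, among them the addition of processed copies, chosen after seeing the data, 73 kept their direction and, where there was a test, their side of the threshold, 5 passed it as just named, and 2 changed sign: without the shRNA2 library, KRT18 was at 0.0035 and KRT7 at 0.087 (without the shRNA1 library, at -0.17 and -0.10). A fit without 1 hairpin has no residual degree of freedom, so no test. The members' share of FPKM was 1.53% in the control and 1.65% in knockdown over protein-coding genes, and 1.24% and 1.31% without the 2 highest genes, against 1.03% and 1.10%. Calls over all genes went from 11 higher and 35 lower to 65 and 110 with the same total and to 16 and 42 with the same protein-coding total. No paired analysis was possible, as there is 1 control library and no label pairs it with a knockdown library. KRT5, KRT13 and KRT81 have lower bounds of 0 in each library, and the part of depth in this was not tested.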

Other observations

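Processed copies of the luminal keratins were listed at low levels. Of 67 KRT18 copies, 37 were above 0 in a library, and they summed to 3.31, 3.18 and 2.90 FPKM (control, shRNA1, shRNA2), or 0.159% to 0.166% of KRT18. Of 50 KRT8 copies, 6 had a mean of at least 1 FPKM, the highest being KRT8P3 at 7.65, 6.57 and 5.78 FPKM. The 5 KRT19 copies summed to 0.754, 0.809 and 0.355 FPKM.

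RefSeq promoters (GRCh38.p14, 250 bases before to 50 after the start) were held for KRT5 and KRT8. Neither had the word TATAAA on either strand, which 11.5% of 35116 promoters hold, nor GGGCGG, which 45.0% hold.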
